A study of Mus musculus with 5 samples.

Results

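Homologous recombination repairs broken DNA by copying an intact sister sequence, and the Fanconi pathway unhooks crosslinks between DNA strands and hands the resulting break to recombination. In background terms, broken ends are sensed and trimmed, the Brca1 and Brca2 proteins and their partners prepare the ends for strand exchange with an intact copy, and joined intermediates are then taken apart by helicases or cut by nucleases. Pro-B cells cut their own immunoglobulin genes, which they rejoin mainly by end joining, while they also divide rapidly in culture, when recombination serves replication. The group described here holds 36 mouse genes of these 2 pathways, and its members were all array features whose annotated symbol was one of those names. That gave 79 of the 45018 features of the array, for 35 genes out of 19087 genes with a named feature. Xrcc2 has no feature under that name and was not analysed here.

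RNA came from 5 cultures of fetal liver pro-B cells, hybridised to 1-colour Agilent arrays (1 array each). Livers of embryos at 16.5 days post coitum were cultured on OP-9 bone marrow stromal cells with interleukin-7, and every culture received 4-hydroxy-tamoxifen (2 mM per the labels) for 24 hours to delete the floxed Ebf1 alleles, followed by 4 more days of culture. The control group (Ebf+/fl, n = 2, numbers 3 and 6 in the titles) lost 1 Ebf1 allele and the deleted group (Ebf fl/fl, n = 3, numbers 4, 5 and 7) lost both, per the labels, so the tamoxifen and the deletion of at least 1 allele were common to both groups. The labels name neither the recombinase nor its promoter, and do not say whether the cultures came from separate embryos, so the p-values measure the spread between these 5 samples only. Xist, the RNA that coats the inactive X chromosome, was at -6.62 and 4.67 (log2, relative to the array's 75th percentile) in controls 3 and 6 and at -6.93, -6.27 and 4.24 in deleted 4, 5 and 7. Each group therefore holds cultures with and without Xist, and neither is a set of technical repeats of a single culture. The titles carry a further number, 111 in both controls and 93 in the deleted samples, and what it stands for cannot be told apart from the genotype.

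Each level is given on the log2 scale, with an array's 75th percentile set to 0, and each gene is represented by its brightest feature unless others are named. The sum of intensities per array was between 66780400 and 79527100, and the number of arrays limits the precision. All 12 pro-B markers with a named feature were above the lower limit (the array's 40th percentile) on every array, but 7 of them fell in deleted cells (Igll1 20.9-fold, Il7r 14.5-fold, Vpreb1 7.59-fold, Dntt 7.22-fold, Cd24a 6.62-fold, Rag2 2.61-fold and Rag1 2.52-fold) and Ptprc rose. Their summed level was 1741 to 1882 times the 75th percentile in controls and 767 to 982 in deleted cells. The brightest Ebf1 probe differed by -0.25 (SE 0.14, adjusted p = 0.274), the probe for AK036716 by -3.02 on the log2 scale (adjusted p = 0.0037 over 22647 probes tested one by one) and the probe for AK042875 by 0.44 (adjusted p = 0.266), so 1 of 3 probes was strongly lower, and which of them lies in the deleted part was not determined here. Of the markers of other cells, summed levels in controls and deleted cells were 1.51 to 1.64 and 1.35 to 2.10 for 10 stromal genes, 5.43 to 16.0 and 3.29 to 3.74 for 9 myeloid genes, 0.468 to 0.936 and 1.06 to 1.38 for 6 T-cell genes, 4.91 to 6.72 and 7.20 to 8.62 for 6 NK-cell genes, 0.172 to 0.178 and 0.141 to 0.165 for 5 erythroid genes, and 0.683 to 0.713 and 0.623 to 0.670 for 6 dendritic-cell genes. Klrd1 and Lyz2 were above the 75th percentile on every array and carried most of the NK-cell and myeloid sums. Sparc, Cd3g and Klrd1 rose, and Itgam, Flt3, Klrb1c (-3.11 on the log2 scale) and Nkg7 (-2.91) fell. The stromal genes Lum and Dcn, the myeloid genes Elane, S100a8 and S100a9, Cd8a, Ncr1 and Gzmb, the erythroid genes Klf1 and Alas2, and Siglech were at or below the lower limit on all arrays. The part of such cells in the results was not tested, and in RNA from whole cultures fewer cells of a type and less RNA per cell cannot be told apart.

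All 35 measured genes passed the filter on dim features (Bard1 through the controls alone), and 6 of them differed between the groups at an adjusted p under 0.05 in a limma fit over 13419 genes. The genes that fell in deleted cells were Rad51b, Brca1, Fanci, Brca2 and Fancb. That is 5 of 35 (14.3%), against 8.74% of all tested genes. A single gene, Rmi1, rose (2.86%, against 8.58% of all tested genes). The median log2 fold change of the 35 genes was -0.61, beside 0.10 over all tested genes, and 25 of the 35 had a negative value. In 17 genes every deleted array lay below both controls, and in 4 every deleted array lay above them, where the whole table gives 21.2% and 30.5%. The 25 and the 17 include Bard1.

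By role, 2 of the 4 Brca mediators fell (median log2 fold change -1.55), 1 of 7 measured genes of strand exchange (-1.11), 1 of 3 of the Fanconi pair with Brip1 (-1.67) and 1 of 8 of the Fanconi core complex (-0.43), while 1 of 6 junction genes rose (-0.14) and none of the 7 genes of break sensing, resection and checkpoint passed (-0.48). All 4 Brca mediators and all 3 genes of the Fanconi pair with Brip1 had negative values, whereas the other roles held both signs. The median and the signs of the Brca mediators include Bard1 at its measured -1.74, which rests on deleted arrays below the lower limit. Strand exchange held both Rad51b at -2.86 and Rad51d at 0.34, and sensing and checkpoint held Chek1 at -1.39 and Nbn at 0.78. In all, 14 genes had a measured mean fall of at least 2-fold, but only 4 of those passed the test. The 14 include Bard1, whose deleted arrays were all below the lower limit. For Bard1 only a fall of at least 1.42-fold is shown. A further 9 genes had adjusted p-values between 0.05 and 0.10, of which 7 were lower (Rad54b, Fancd2, Bard1, Eme1, Gen1, Brip1 and Xrcc3) and 2 higher (Atm and Nbn). The shares of all tested genes in that band or with a 2-fold fall are not given here, so neither count is a trait of these genes. In limma 17 of the 35 genes had an unadjusted p under 0.05, beside 4487 of all 13419 tested genes. Without deleted 5 none of the 35 genes passed as lower in limma, where 683 of all tested genes did. Without deleted 4 only Rad51b did, beside 790 of all tested genes, and without deleted 7 there were 8, beside 1018. Leaving out control 3 leaves 1 control, and its effect on single genes is given below. Among all tested genes, 1151 were higher and 1173 lower (49.5% of the calls higher), and with no scaling between arrays 669 and 1062 (38.6%), a setting that moved the median of all genes from 0.10 to -0.04.

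**Figure D1:**
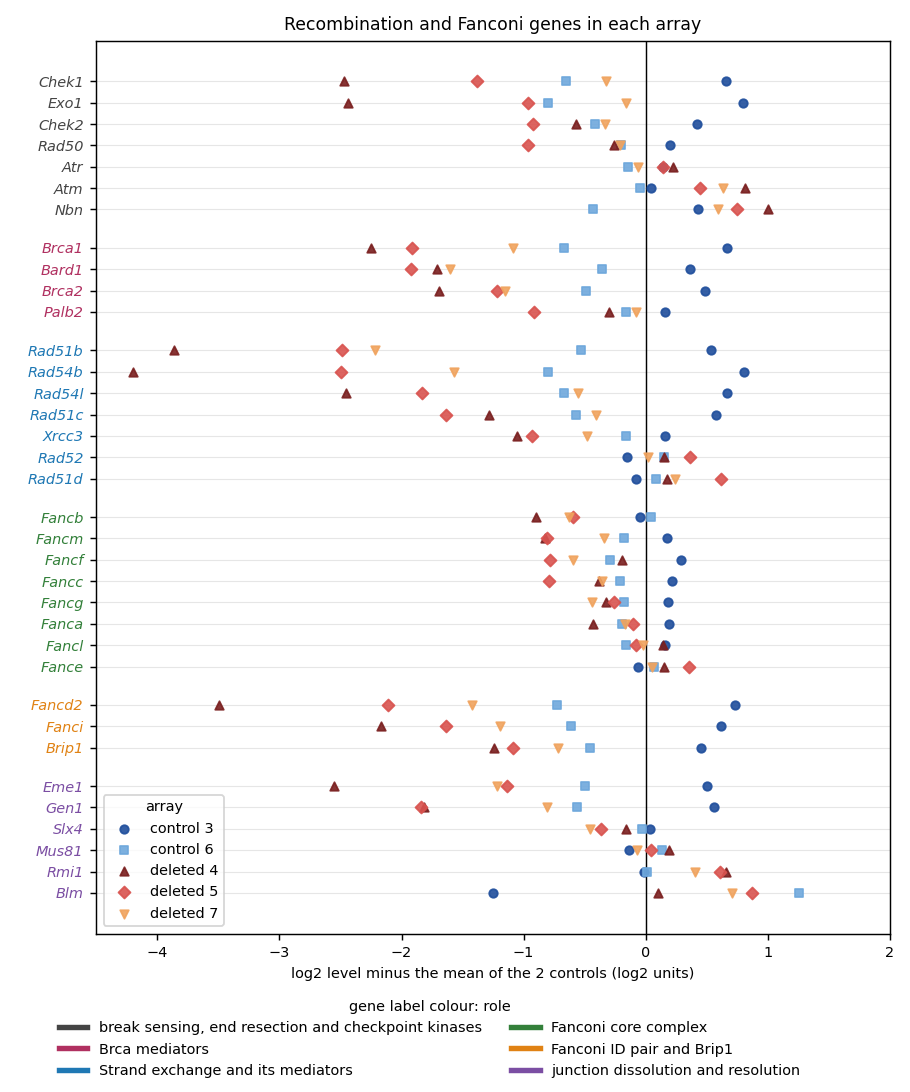
Log2 level of each of the 35 genes in each of the 5 arrays, minus the mean of the 2 controls (x axis, log2 units), with gene names coloured by role and sorted by mean change within it. Points are single arrays (blue: controls, red to orange: deleted). Control 3 lies to the right of control 6 in 28 genes (against 48.5% of all tested genes), and Rad51b, Rad54b and Fancd2 reach the lowest values in deleted 4.

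**Figure D2:**
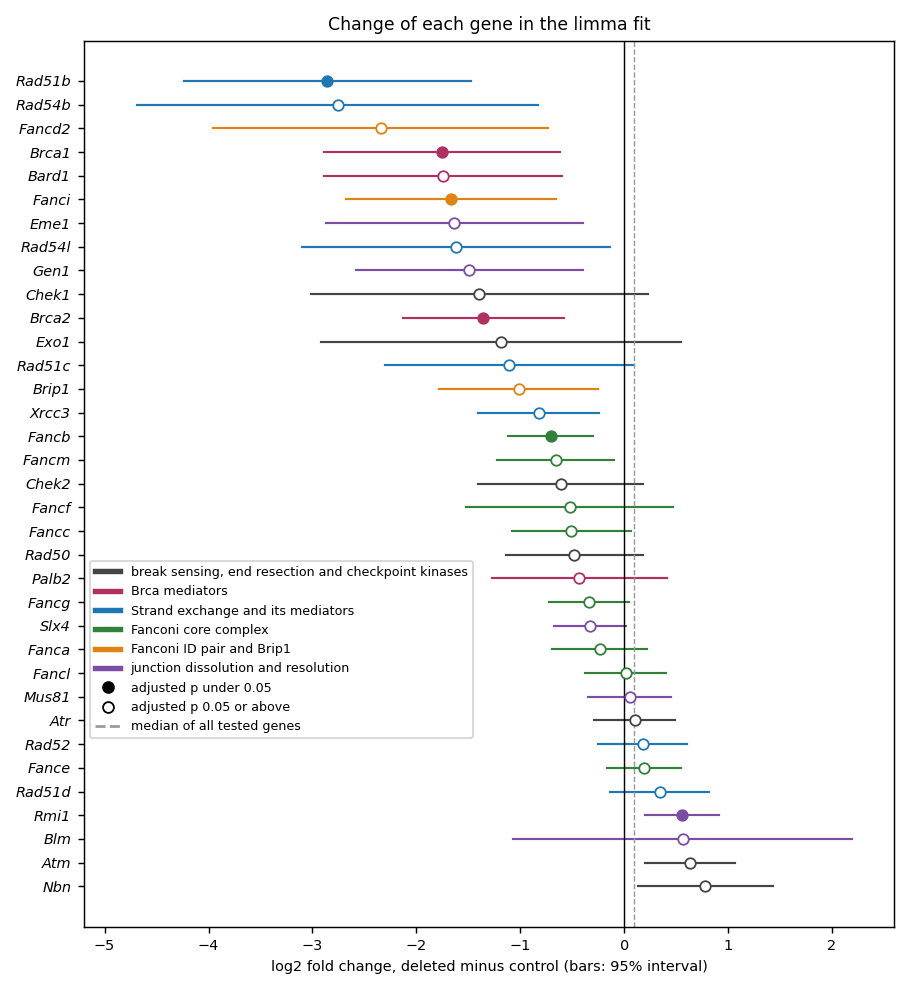
Log2 fold change of each gene, deleted minus control, with 95% intervals from the limma fit (x axis, log2 units). Filled circles mark the 6 genes with an adjusted p under 0.05, open circles the other 29, and the dashed line the median of all tested genes (0.10). Rad51b is lowest at -2.86 and Nbn highest at 0.78.

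The promoters of the 3 genes with the largest fall among those that passed, and of the single gene that rose, are shown here, so that their sequence can be read beside their values. They are taken from RefSeq (build GRCm38.p6) and run from 250 bases before to 50 bases after a start site. Capitals mark matches, on either strand, to 6 strings of letters: CCCNNGGG and the 10-letter Ebf consensus that has it at its centre, GCGGGAAA and GCGCCAAA for E2F factors, TTTGAA for the cell cycle genes homology region and CCAAT for NF-Y. The Rad51b window is chr12:79297101-79297400 (plus strand), the Brca1 window chr11:101551906-101552205 (minus strand), the Fanci window chr7:79392088-79392387 (plus strand) and the Rmi1 window chr13:58402347-58402646 (plus strand). Rad51b and Rmi1 have 2 starts in the table, and the more downstream is shown because it holds more of the strings.
Rad51b: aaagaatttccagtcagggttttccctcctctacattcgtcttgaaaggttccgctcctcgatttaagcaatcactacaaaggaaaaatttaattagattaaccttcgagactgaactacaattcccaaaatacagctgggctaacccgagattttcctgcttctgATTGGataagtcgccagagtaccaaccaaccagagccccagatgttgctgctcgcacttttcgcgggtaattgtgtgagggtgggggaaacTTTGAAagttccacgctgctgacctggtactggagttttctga
Brca1: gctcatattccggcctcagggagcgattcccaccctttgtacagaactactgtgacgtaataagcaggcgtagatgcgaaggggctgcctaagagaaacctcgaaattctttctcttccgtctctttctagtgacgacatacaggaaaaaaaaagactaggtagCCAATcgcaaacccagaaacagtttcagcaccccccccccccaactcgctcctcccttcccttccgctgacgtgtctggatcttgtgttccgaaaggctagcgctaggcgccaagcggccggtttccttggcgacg
Fanci: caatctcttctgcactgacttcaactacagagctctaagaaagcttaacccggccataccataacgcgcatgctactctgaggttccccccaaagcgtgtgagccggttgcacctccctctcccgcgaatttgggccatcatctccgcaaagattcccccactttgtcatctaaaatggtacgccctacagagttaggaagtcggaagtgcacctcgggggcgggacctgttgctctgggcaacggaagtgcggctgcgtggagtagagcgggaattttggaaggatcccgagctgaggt
Rmi1: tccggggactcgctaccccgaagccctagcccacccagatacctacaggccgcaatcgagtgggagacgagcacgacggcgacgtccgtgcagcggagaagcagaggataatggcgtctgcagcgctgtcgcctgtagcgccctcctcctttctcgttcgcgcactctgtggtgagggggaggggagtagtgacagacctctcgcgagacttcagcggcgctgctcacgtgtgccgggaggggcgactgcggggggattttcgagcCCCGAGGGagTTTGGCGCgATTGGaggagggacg

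The Rad51b window holds CCAAT and TTTGAA, the Brca1 window CCAAT, the Rmi1 window CCCNNGGG, GCGCCAAA and CCAAT, and the Fanci window none of the 6. Of the 36 genes 29 have a promoter in the table. The 10-letter Ebf consensus is in 0 of the 29 (1.06% of 27025 genes) and CCCNNGGG in 7 (24.1%, beside 15.4% of all genes). The latter are Atm, Atr, Chek2, Rad51c, Fanca, Fancm and Rmi1. Among them Rmi1 rose, and the others did not pass the test, with Fancm at -0.66 (every deleted array below both controls) and Rad51c at -1.11. GCGGGAAA is in 5 of the 29 (17.2%, beside 1.24%), namely Brca2, Bard1, Chek2, Rad51c and Fancg, while GCGCCAAA is in Rmi1 alone (3.45%, beside 0.585%). TTTGAA is in 3 (10.3%, beside 20.2%) and CCAAT in 17 (58.6%, beside 41.1%). These are matches of letters only, and binding was not measured.

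Brca1, Bard1, Palb2 and Brca2 work together to prepare resected ends for strand exchange. Brca1, a ubiquitin ligase that promotes resection, stood at 1.46 and 0.12 in controls 3 and 6 and at -1.46, -1.13 and -0.30 in deleted 4, 5 and 7. Every deleted array was below both controls, with the smallest gap at deleted 7. Brca1 fell 3.37-fold, from 0.79 ± 0.94 (SD, n = 2) to -0.96 ± 0.60 (SD, n = 3). The difference was -1.75 log2 units (SE 0.48) at a limma adjusted p of 0.04998. The Brca1 call was lost in 14 of 18 alternatives, among them scaling by the median (adjusted p = 0.0548), no scaling (0.0544), quantile normalization (0.0554) and the mean of its probes (0.126), and a second, dimmer probe gave -1.50 with overlap (adjusted p = 0.324). Brca2, a mediator of strand exchange that binds single-stranded DNA, was at 1.08 and 0.11 in controls and at -1.10, -0.62 and -0.55 in deleted cells, again without overlap. It fell 2.56-fold (log2 fold change -1.35, SE 0.32, adjusted p = 0.0352), and its second probe gave the same -1.35 without passing. The Brca2 call was lost in 8 of 18 alternatives, among them no filter (adjusted p = 0.0519) and no intensity trend (0.0683).

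Bard1, the partner that Brca1 needs to be stable, was dim. Its single probe read -4.58 and -5.30 in controls and -6.65, -6.86 and -6.54 in deleted cells, where no array was above the lower limit. Bard1 was therefore at least 1.42-fold lower in deleted cells, and its measured log2 fold change of -1.74 (SE 0.48) had an adjusted p of 0.0520. Palb2, which links Brca1 to Brca2, differed by -0.43 log2 units (95% interval -1.27 to 0.41), and its groups overlapped. Without control 3 the log2 fold change of Brca1 was -1.08 and that of Brca2 -0.87 (adjusted p = 0.262 and 0.174), and neither passed without deleted 4 (-1.50 and -1.18, adjusted p = 0.0973 and 0.0735) or deleted 5 (-1.67 and -1.42, adjusted p = 0.138 and 0.0865), nor Brca2 without deleted 7 (-1.46, adjusted p = 0.0523).

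Among the genes of strand exchange and its mediators, 1 of 7 passed. Rad51b, which acts in a complex with Rad51c, Rad51d and Xrcc2, stood at -1.27 and -2.33 in controls and at -5.66, -4.29 and -4.02 in deleted 4, 5 and 7. The groups were separated by more than the range within either. Rad51b fell 7.24-fold, from -1.80 ± 0.75 (SD, n = 2) to -4.66 ± 0.88 (SD, n = 3). The difference was -2.86 log2 units with a 95% interval of -4.24 to -1.47 (SE 0.58, adjusted p = 0.0215). Deleted 4 was below the lower limit, and a second, dimmer probe was above it in 1 array only and was not tested. The Rad51b call was lost without control 3 (-2.32, adjusted p = 0.144) and without deleted 5 (-3.04, adjusted p = 0.0587).

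Rad54b and Rad54l encode motor proteins that move along DNA during strand exchange. Rad54b read 0.52 and -1.08 in controls and -4.48, -2.78 and -1.85 in deleted cells. The groups were apart, but the deleted arrays alone spanned more than 2 log2 units, and the log2 fold change of -2.76 (SE 0.81) had an adjusted p of 0.0622. Rad54l read 0.20 and -1.14 against -2.93, -2.30 and -1.03, so that deleted 7 lay above control 6 (log2 fold change -1.62, SE 0.62, adjusted p = 0.123). Both passed without deleted 7 (-3.35 and -2.15, adjusted p = 0.0362 and 0.0409).

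Rad51c and Xrcc3 form a complex of their own. Xrcc3 was at -0.53 and -0.85 in controls and at -1.74, -1.62 and -1.17 in deleted cells (log2 fold change -0.82, SE 0.24, adjusted p = 0.0639), and passed without deleted 7 (-0.99, adjusted p = 0.0465). Rad51c read -2.07 and -3.22 against -3.93, -4.28 and -3.05, with overlap (-1.11, SE 0.50, adjusted p = 0.174). Rad51d, a member of the complex that holds Rad51b and Rad51c, lay at the other end of the range. It read -0.55 and -0.39 in controls and -0.30, 0.15 and -0.23 in deleted cells (0.34, 95% interval -0.13 to 0.82, adjusted p = 0.283), with further probes at 0.31 and 0.57. Rad52, which anneals complementary strands, differed by 0.18 log2 units (95% interval -0.25 to 0.61).

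Fancd2 and Fanci are the pair that the Fanconi pathway modifies with ubiquitin at a crosslink, and Brip1 is a helicase that binds Brca1. Fanci stood at 1.32 and 0.09 in controls and at -1.47, -0.93 and -0.49 in deleted cells, with no overlap. Fanci fell 3.17-fold (log2 fold change -1.67, SE 0.42, adjusted p = 0.0412). Fancd2 read 0.16 and -1.30 in controls and -4.07, -2.68 and -1.99 in deleted cells. Its log2 fold change was larger, -2.34 (SE 0.67), with a wider spread and an adjusted p of 0.0593, and a second probe gave -2.36. Brip1 read -0.25 and -1.16 against -1.95, -1.79 and -1.42 (-1.02, SE 0.32, adjusted p = 0.0750; second probe -1.35). Deleted 4 was the lowest array in all of these. Fanci did not pass without deleted 4 (-1.41, limma adjusted p = 0.0791) or deleted 5 (-1.68, 0.110), and its log2 fold change without control 3 was -1.05. Nor did it pass with no filter (0.0618), no intensity trend (0.0797) or the mean of its probes (-0.93, 0.0547). That mean includes a second Fanci probe that was at or below the lower limit on every array. Fancd2 passed without deleted 7 (-2.80, adjusted p = 0.0408), and Brip1 without control 6 (-1.47, adjusted p = 0.0388).

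The Fanconi core complex, which carries the ubiquitin ligase of the pathway, differed less. Of its 8 genes 1 passed, and the median log2 fold change was -0.43. Fancb, which acts beside the ligase subunit Fancl, read 0.43 and 0.53 in controls and -0.42, -0.11 and -0.15 in deleted cells. The controls were close to each other here, and Fancb fell 1.63-fold, from 0.48 ± 0.07 (SD, n = 2) to -0.23 ± 0.17 (SD, n = 3). Its log2 fold change was -0.71 (SE 0.17, adjusted p = 0.0364). It did not pass with any array left out, with adjusted p-values of 0.142 and 0.128 without controls 3 and 6 and of 0.109, 0.0599 and 0.0654 without deleted 4, 5 and 7, although its log2 fold change stayed between -0.76 and -0.61. Nor did it pass with no scaling (0.0584), no filter (0.0523) or no intensity trend (0.0598).

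Fancm, a DNA translocase that anchors the core complex, read -0.46 and -0.81 in controls and -1.46, -1.45 and -0.97 in deleted cells (log2 fold change -0.66, SE 0.24, adjusted p = 0.104). Fancc, Fance and Fancf form a module of the core complex that binds the Fancd2 pair. Fancc had -0.51 (adjusted p = 0.193) without overlap, and Fancf, close to the lower limit, -0.52 (adjusted p = 0.431) with overlap. Fance, at 3.87 and 4.00 in controls and 4.09, 4.29 and 3.99 in deleted cells, differed by 0.19 log2 units (95% interval -0.17 to 0.54). Fanca and Fancl differed by -0.24 (95% interval -0.69 to 0.22) and 0.01 (95% interval -0.38 to 0.41), both with overlap. The sign of Fanca was positive with the mean of its probes (0.025), which includes a probe below the lower limit on every array. The sign of Fancl was negative with no scaling (-0.12) and with quantile normalization (-0.03).

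Fancg, a core subunit that binds Fanca, gave opposite signs at its probes. The brightest probe read 2.53 and 2.17 in controls and 2.03, 2.09 and 1.91 in deleted cells (log2 fold change -0.34, SE 0.16, adjusted p = 0.193), and a probe for NM_053081 gave -0.84 without passing. Another probe for NM_053081 read -3.61 and -3.96 in controls and -2.07, -2.90 and -1.88 in deleted cells, a rise of 1.50 (SE 0.36, adjusted p = 0.0386 in the fit over probes, where 6.84% of probes were higher and 7.69% lower). The mean of the Fancg probes gave 0.11 (adjusted p = 0.789), so no direction can be given for Fancg.

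The genes that take joined DNA molecules apart had log2 fold changes of both signs. Rmi1, which works with the helicase Blm and topoisomerase III to dissolve Holliday junctions, read 1.00 and 1.03 in controls and 1.67, 1.62 and 1.42 in deleted cells. Both controls were nearly equal and all deleted arrays lay above them. Rmi1 rose 1.47-fold, from 1.01 ± 0.02 (SD, n = 2) to 1.57 ± 0.14 (SD, n = 3). Its log2 fold change was 0.56 (SE 0.15, adjusted p = 0.0468). It did not pass without control 3 or 6 (adjusted p = 0.203 and 0.127) or without deleted 4, 5 or 7 (0.152, 0.0968 and 0.0548), with no scaling (adjusted p = 0.230) or with quantile normalization (adjusted p = 0.0541), nor with no filter (0.0598), every probe tested (0.0549) or no intensity trend (0.0861).

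Eme1 and Mus81 encode the subunits of a nuclease, and Gen1 encodes a resolvase that cuts Holliday junctions. Eme1 read -0.82 and -1.82 in controls and -3.87, -2.45 and -2.53 in deleted cells (log2 fold change -1.63, SE 0.52, adjusted p = 0.0766). Its partner Mus81 read 0.51 and 0.78 against 0.83, 0.69 and 0.57, and its log2 fold change of 0.05 had a 95% interval of -0.35 to 0.45 (-0.08 with no scaling, so its sign is not settled). Gen1 read -0.81 and -1.94 against -3.19, -3.22 and -2.19 (-1.49, SE 0.46, adjusted p = 0.0707) and passed without deleted 7 (-1.83, adjusted p = 0.0412). Slx4, a scaffold that binds the Mus81 nuclease, had -0.33 (95% interval -0.67 to 0.02).

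Blm stood apart by a disagreement between the controls. Its only probe read -2.18 in control 3 and 0.33 in control 6, and -0.82, -0.05 and -0.22 in deleted cells, between them. The log2 fold change was 0.56 (95% interval -1.07 to 2.19, adjusted p = 0.612), -0.69 without control 3 and 1.82 without control 6 (adjusted p = 0.334 and 0.0352). In 28 of the 35 genes control 3 was the higher control (48.5% of all tested genes), and Blm was one of the 7 in which it was not.

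Of the 7 break-sensing, resection and checkpoint genes none passed in the limma fit. At an unadjusted p under 0.05 there were 2 of them, beside 4487 of all 13419 tested genes. Nbn, which belongs to the complex that first binds broken ends, read 1.44 and 0.58 in controls and 2.01, 1.76 and 1.60 in deleted cells. Its deleted arrays were all higher (log2 fold change 0.78, SE 0.27, adjusted p = 0.0974), and it passed without control 3 (1.21, adjusted p = 0.0445). Rad50, of the same complex, had -0.48 (adjusted p = 0.277) at its brightest probe and 0.89 at a dim probe, and the mean of its probes gave 0.20, so its direction is not settled.

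Atm, the kinase that responds to broken ends, is on the array 11 times. Its brightest feature, for AK048970, read -0.69 and -0.77 in controls and 0.08, -0.29 and -0.09 in deleted cells, all higher than the controls (log2 fold change 0.63, SE 0.18, adjusted p = 0.0595). The 10 features for NM_007499 had medians of -2.11 and -2.12 in controls and of -1.29, -1.87 and -1.65 in deleted 4, 5 and 7. Within an array these features had an SD of 0.07 to 0.17 log2 units, less than the differences between deleted arrays. Their log2 fold changes were between 0.29 and 0.63, all positive, with the groups apart in 8 of 10 and adjusted p-values of 0.122 to 0.529. The annotation does not say whether the 10 are repeats of a single probe.

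**Figure D3:**
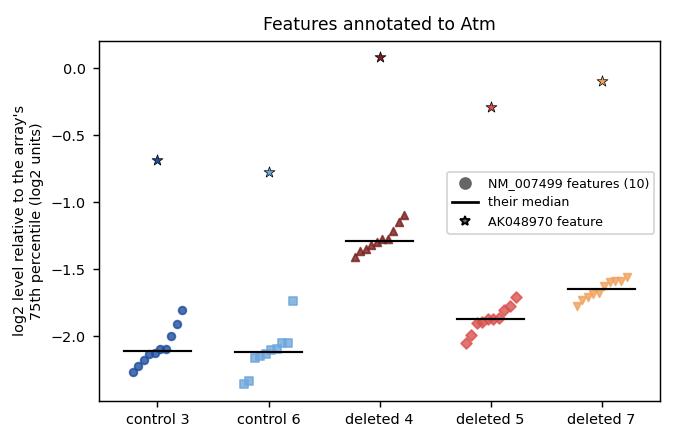
Log2 level of the 11 features annotated to Atm in each array (y axis, relative to the array's 75th percentile). Small symbols are the 10 features for NM_007499, horizontal lines their medians, and stars the feature for AK048970. The medians are -2.11 and -2.12 in controls and -1.87 to -1.29 in deleted cells.

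Atr, the kinase that responds to stalled replication, read 2.31 and 2.02 in controls and 2.39, 2.30 and 2.10 in deleted cells (log2 fold change 0.10, 95% interval -0.29 to 0.49). Its sign was negative with no scaling (-0.03). Further tested Atr probes gave 0.12 and -0.12, both with overlap. A dim probe of Atr for AK030118 was below the lower limit in both controls and above it in all deleted arrays, at least 2.35-fold higher. It passed the filter through the deleted arrays alone, so its limma adjusted p (0.0505 over probes) adds no support. Chek1, the kinase that Atr activates, read -1.60 and -2.92 in controls and -4.73, -3.64 and -2.58 in deleted cells, a mean log2 fold change of -1.39 with a 95% interval of -3.01 to 0.23. Exo1, a nuclease that resects ends, had an even wider spread, with 0.89 and -0.71 in controls and -2.34, -0.87 and -0.07 in deleted cells (-1.19, 95% interval -2.92 to 0.54). Chek2, which Atm activates, had -0.61 (95% interval -1.40 to 0.18). In the last 3 genes deleted 7 lay above control 6.

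The genes that were lower without overlap also differed between arrays of the same genotype, mostly in a common order. Of the 17 genes with all deleted arrays below both controls, control 3 was above control 6 in 16, deleted 7 was the highest deleted array in 13 and deleted 4 the lowest in 11. Among all tested genes deleted 7 was the highest deleted array in 24.1% and deleted 4 the lowest in 32.6%. Control 6 and deleted 7 are the arrays high in Xist. With a covariate for those arrays Rad51b alone still passed in limma (-2.84, adjusted p = 0.0442). That is 1 of 35 lower and 0 higher, where 5.84% and 5.21% of all tested genes were called. In that fit the adjusted p was 0.0867 for Brca1, 0.0565 for Brca2, 0.0716 for Fanci, 0.0805 for Fancb and 0.0992 for Rmi1, with log2 fold changes of -1.75, -1.39, -1.69, -0.69 and 0.54. Genes of DNA replication and mitosis gave the same picture. The median of 24 S-phase genes, relative to the control mean, was 0.48 and -0.48 in controls and -1.48, -0.98 and -0.53 in deleted 4, 5 and 7, and control 3 was above control 6 in all 24. That of 19 G2/M genes was 0.55 and -0.55 against -4.32, -2.20 and -1.61. None of the S-phase genes passed (limma), whereas 9 of the 19 G2/M genes fell. At an unadjusted p under 0.05 there were 10 of the 24 S-phase genes, beside 4487 of all 13419 tested genes.

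A limma fit with the S-phase median of each array as a covariate was added after the values were seen. At an unadjusted p under 0.05 it had 9 of the 35 genes, and the reported fit had 17. In the reported fit 4487 of all 13419 tested genes had such a p. That number with the covariate is not given here, so the 9 and the 17 cannot be compared. With the covariate 3 of the 35 genes were called lower and 0 higher, where 4.85% and 4.24% of all tested genes were called. Those shares were 8.74% and 8.58% in the reported fit. The lower genes were Rad51b (log2 fold change -1.97, adjusted p = 0.0246), Rad54b (-1.38, adjusted p = 0.0265) and Fancd2 (-1.21, adjusted p = 0.0409). Brca1, Brca2 and Fanci had -1.01, -0.91 and -1.01 in that fit (adjusted p = 0.0779, 0.0850 and 0.0582), Chek1 had -0.29 and Exo1 0.05. The covariate is the median level itself, not the median relative to the control mean given above. It was 2.81 and 1.63 in controls 3 and 6 and 0.38, 1.41 and 2.09 in deleted 4, 5 and 7. Deleted 7 thus lay above control 6 in the covariate. The covariate differs between the groups as well as within them, so genotype and S-phase level cannot be told apart in these arrays.

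**Figure D4:**
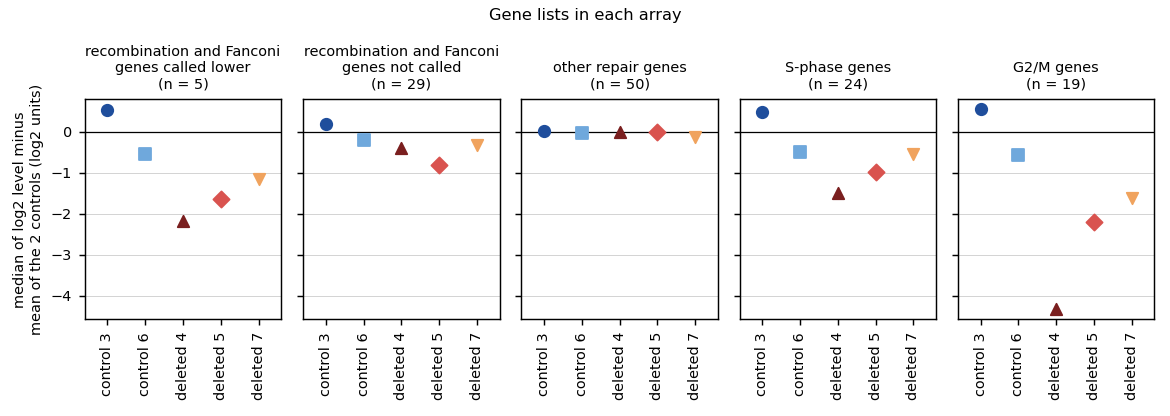
Median over each list of the log2 level minus the mean of the 2 controls (y axis, log2 units), in each of the 5 arrays. The panels show the 5 recombination and Fanconi genes that fell, the other 29 that did not pass, 50 other repair genes, 24 S-phase genes and 19 G2/M genes. Control 3 is above control 6 in each panel (by 0.04 for other repair genes), and deleted 4 is lowest in the first and in the last 2.

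A list of 54 further genes of the same pathways, of which 51 have a named feature and 50 were tested, had 5 lower and 3 higher genes (10.0% and 6.00%, against the 8.74% and 8.58% given above), with a median log2 fold change of -0.04. Fignl1, an ATPase of recombination, read 1.90 and 0.83 in controls and -2.49, -1.33 and -0.40 in deleted cells, and fell 6.83-fold (log2 fold change -2.77, SE 0.61, adjusted p = 0.0277). Ube2t, the enzyme that hands ubiquitin to the Fanconi ligase, read 1.99 and 1.06 against -0.65, -0.22 and 0.10 and fell 3.44-fold (-1.78, SE 0.33, adjusted p = 0.0166). H2ax, the histone that Atm marks beside a break, read 5.79 and 4.99 against 3.14, 3.83 and 3.91 and fell 3.39-fold (-1.76, SE 0.32, adjusted p = 0.0150). On the log2 scale the helicase gene Wrn fell by 1.06 (SE 0.20, adjusted p = 0.0173) and Topbp1, an activator of Atr, fell by 0.68 (SE 0.17, adjusted p = 0.0381).

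The genes of that list that rose were Rpa1, Ercc4 and Rad17. Rpa1, the large subunit of the protein that coats single-stranded DNA, read 2.40 and 2.19 in controls and 3.02, 3.29 and 3.00 in deleted cells (log2 fold change 0.81, SE 0.16, adjusted p = 0.0183). The nuclease gene Ercc4, which unhooks crosslinks, and Rad17, which loads a checkpoint clamp, had 0.62 (SE 0.14, adjusted p = 0.0337) and 0.61 (SE 0.15, adjusted p = 0.0401). Rbbp8 and Mdc1 have no feature under those names and were not analysed here, and Dmc1 was below the lower limit on all arrays.

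Several of these calls were lost when 1 array was left out or the choice of probe was changed. Leaving out control 3 or 6 leaves 1 control. Over all tested genes, too, fewer were called with an array left out (578 higher and 683 lower without deleted 5, against 1151 and 1173). What part of the losses came from having fewer arrays was not tested. Without control 3 none of the 8 passed, with adjusted p-values of 0.171 for Fignl1, 0.0888 for Ube2t, 0.0895 for H2ax, 0.0934 for Wrn, 0.221 for Topbp1, 0.0680 for Rpa1, 0.167 for Ercc4 and 0.211 for Rad17. Without control 6 Wrn (0.0724), Rpa1 (0.0846), Ercc4 (0.0970) and Rad17 (0.0952) were lost. Without deleted 5 the same happened to Fignl1 (0.0870), Ube2t (0.0602), Topbp1 (0.0919), Ercc4 (0.0740) and Rad17 (0.0908), without deleted 4 to Topbp1 (0.105), Ercc4 (0.103) and Rad17 (0.122), and without deleted 7 to Topbp1 (0.0570). With the mean of the probes Fignl1 (-1.76, 0.0608), Ube2t (-0.69, 0.114), Wrn (-0.66, 0.168), Ercc4 (0.89, 0.114) and Rad17 (0.56, 0.0542) did not pass. Fignl1, Topbp1, Ercc4 and Rad17 were also lost with no intensity trend (0.0605, 0.0786, 0.0691 and 0.0834) and with the Xist covariate (0.0511, 0.0758, 0.0754 and 0.0847), and the last 3 with no scaling (0.0719, 0.145 and 0.146). None of the 8 changed sign in any of the 18 alternatives tried.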

How the data were processed

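The authors deposited a table of linear-scale intensities, 1 value per feature and array, and the submitters' processing notes name Agilent Feature Extraction without a version or a normalization. Of 45018 features 33653 have 1 gene symbol, 56 several and 11309 none in the platform annotation; 33517 named features matched a RefSeq gene ID and 0 symbols differed. Here each array was divided by its 75th percentile and converted to log2. A gene was represented by its brightest feature and tested if that was above the array's 40th percentile, which stands in for detection flags, in at least 2 arrays. All 5 arrays entered a limma 3.58.1 fit (R 4.3.3, lmFit and eBayes with an intensity trend), with Benjamini-Hochberg adjustment over all genes tested and a threshold of 0.05. The fit was tested on simulated data. The 2 control and 3 deleted arrays limit the precision, and intensities carry no count depth.

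Every one of the 36 genes is accounted for. Values per array are given for those that passed and those with large differences or informative controls, and all genes of the further pathway list that passed are named. The genes and the lists (other repair, S-phase, G2/M and cell type markers) were chosen with earlier results of these data known. Alternatives changed the scaling, filter, choice of probe, floor, variance model, array weights, a covariate for arrays high in Xist, and left out each array; a covariate from S-phase genes was added after the data were seen. One item of the further pathway list is not reported here.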

Additional observations from a re-analysis of the deposited data

How the results depend on the processing

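No paired analysis was possible because the groups share no sample numbers. Recombination and Fanconi genes called higher and lower numbered 1 and 5 in the reported fit, 0 and 3 with no scaling, 0 and 2 with no filter or with no intensity trend, 0 and 4 with every probe tested, 2 and 7 with array weights, 0 and 1 (Rad51b) with the Xist covariate, and 0 and 3 with the S-phase covariate chosen after seeing the data. Other repair genes (3 and 5 reported) numbered 1 and 4 with no scaling or with the S-phase covariate, 1 and 2 with the mean of probes, and 1 and 3 with no trend or with the Xist covariate. Over all genes (1151 and 1173 reported) there were 669 and 1062 with no scaling, 897 and 918 with no filter, and 761 and 814 with no trend. The numbers were 1000 and 1074 with the mean of probes and 1331 and 1357 with array weights. They were 699 and 784 with the Xist covariate, and 569 and 651 with the S-phase covariate. With every probe tested, 1549 and 1741 of 22647 probes were called. With 1 array left out, the recombination and Fanconi genes ranged from 0 to 1 higher and 0 to 8 lower, the other repair genes from 0 to 3 and 0 to 7, and all genes from 383 to 947 and 344 to 1018.

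Signs turned as follows. With no scaling Atr was -0.032, Fancl -0.12 and Mus81 -0.079; with quantile normalization Fancl was -0.028; with the mean of probes Rad50 was 0.20, Fanca 0.025, Fancg 0.11 and Fancl -0.073; with the Xist covariate Fancl was -0.015; with the S-phase covariate Exo1 was 0.052 and Mus81 -0.11. With 1 array left out Atr ranged from -0.045 to 0.24, Blm from -0.69 to 1.82, Fancl from -0.15 to 0.17 and Mus81 from -0.080 to 0.19. The cause was not tested. Features near the lower limit (Bard1, Fancf and Rad51b in deleted cells) carry little signal over background.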
